A study of Mus musculus with 6 samples.

Results

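The comparison described here sets T cells that met their antigen through one dendritic cell receptor against T cells that met it through another. The arrays labelled for anti-DCIR2-BDC (2 arrays) were compared with those labelled for anti-DEC205-BDC (2 arrays), 4 of the 6 arrays in the series, for all 19938 genes that had a probe set with exactly 1 gene symbol. The recipients were female NOD mice aged 7 weeks, a strain that develops autoimmune diabetes, and all of them, controls included, carried transferred BDC2.5 CD4 T cells, whose receptor recognises a pancreatic beta cell antigen. One group received 100 ng of an antibody against DCIR2 that carries the BDC antigen (anti-DCIR2-BDC), another 100 ng of an antibody against DEC205 that carries it (anti-DEC205-BDC), and the control group PBS. The BDC2.5 cells were recovered from the spleen 14 h after injection, by magnetic enrichment of T cells and flow sorting of Thy1.1+CD4+ cells. Each group had 2 arrays, PBS included, described as biological duplicates without the number of mice behind each, so the p-values measure the spread between these samples, which may be technical. There was no group given antibody without antigen, so in a comparison with PBS the effects of antigen and of antibody cannot be told apart.

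DEC205 (gene Ly75) and DCIR2 (gene Clec4a4) are endocytic lectin receptors on the surface of dendritic cells. In the mouse spleen DEC205 marks the CD8-positive conventional dendritic cells, known for cross-presenting antigen to CD8 T cells, and DCIR2 marks the CD8-negative ones, known for presenting antigen on MHC class II to CD4 T cells. Antigen coupled to an antibody against either receptor is taken up and presented by that cell type, and without an added inflammatory stimulus such presentation to CD4 T cells is known to end in deletion, anergy or regulatory differentiation. Hours after a CD4 T cell meets antigen it switches on immediate-early transcription factors, then cytokines and surface receptors, then ribosome assembly, nutrient uptake and DNA replication, while genes of the naive state are switched off.

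Values are log2 expression per probe set, so a difference of 1 is a doubling, and differences are given as anti-DCIR2-BDC minus anti-DEC205-BDC. Over all probe sets of an array (a description, since probe sets share the array), Pearson's r was 0.982 between the DCIR2 arrays and 0.974 between the DEC205 arrays. DEC205 array 2 correlated with the DCIR2 arrays at 0.979 and 0.98, above its correlation with its own group, while DEC205 array 1 correlated with each of them at 0.971. Where leaving out 1 of these arrays moved a gene list's count of 4 or more by over 1.5 times, the count without it is given beside it. The sorted cells had the markers of their label: Cd3e read 11.96 and 12.12 in the PBS arrays, 11.57 and 11.71 in the DEC205 arrays, and 11.16 and 11.45 in the DCIR2 arrays, and Cd4 lay between 9.91 and 10.74 in all 6. The 16 dendritic cell markers had list means between 5.36 and 5.68, beside a median gene level of 5.63; Clec9a lay between 3.98 and 4.35, whereas Ccr7, which T cells also express, lay between 9.58 and 10.61 and Cst3 between 6.61 and 7.71.

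Between the antibodies 4 genes passed the test, Il3, Serpinb6b, Zbtb32 and Cpd, and all 4 were higher after anti-DCIR2-BDC. They are 0.0201% of the genes tested (limma, Benjamini-Hochberg adjusted p under 0.05 over all genes). No gene passed in the other direction. At an unadjusted p under 0.05, 1113 genes were higher after anti-DCIR2-BDC, 5.58% of those tested, and 923 were lower, 4.63%. Sizes were modest for most genes: 38 were at least 2-fold higher and 30 at least 2-fold lower after anti-DCIR2-BDC, the median absolute log2 difference was 0.14, and the median 95% interval reached 0.388 to either side. Both DCIR2 arrays lay above both DEC205 arrays for 3853 genes, 19.3%, and below both for 4162, 20.9%. A single-gene exact permutation test of 2 arrays against 2 cannot give a two-sided p below 0.333, so no gene could pass by it. The test used here pools the spread over genes.

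**Figure D1:**
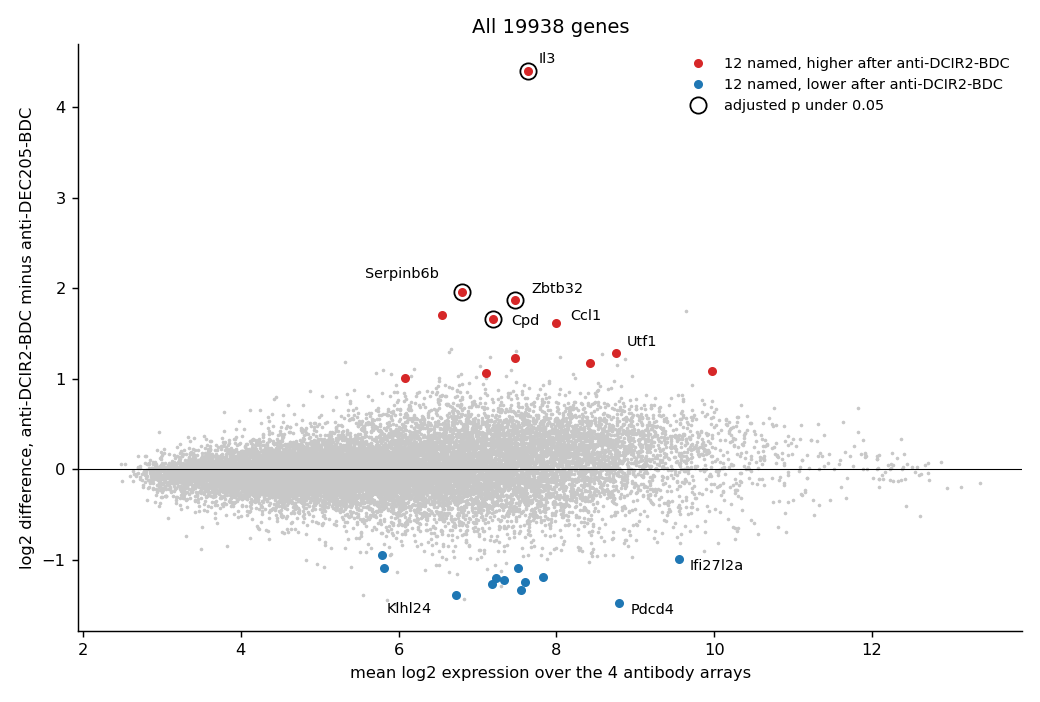
Each point is 1 of the 19938 genes, with its mean log2 expression over the 4 antibody arrays on the horizontal axis and its log2 difference, anti-DCIR2-BDC minus anti-DEC205-BDC, on the vertical axis; red and blue points are the 12 named genes in each direction and rings mark genes that passed. The 4 ringed genes all lie above 0, with Il3 at 4.40 and the other three between 1.66 and 1.95.

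The sequences just upstream of the starts of the 4 genes that passed, and of Ccl1 and Il2, which had the next large differences among secreted factors, are printed because these genes were higher in the same arrays. Each is the 250 bases before the RefSeq start on the GRCm38.p6 assembly, read on the strand of the gene, 5′ to 3′. Capitals mark a form of the NFAT motif, TGGAAA or its reverse complement TTTCCA. NFAT is the calcium-activated factor that drives cytokine genes in T cells.
Il3, chr11:54267280-54267529, minus strand: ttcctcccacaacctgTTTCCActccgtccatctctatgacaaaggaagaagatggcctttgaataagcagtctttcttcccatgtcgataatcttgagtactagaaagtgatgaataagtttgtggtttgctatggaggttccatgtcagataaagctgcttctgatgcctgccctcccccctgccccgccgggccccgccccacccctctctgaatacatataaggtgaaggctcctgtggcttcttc
Il2, chr3:37125955-37126204, minus strand: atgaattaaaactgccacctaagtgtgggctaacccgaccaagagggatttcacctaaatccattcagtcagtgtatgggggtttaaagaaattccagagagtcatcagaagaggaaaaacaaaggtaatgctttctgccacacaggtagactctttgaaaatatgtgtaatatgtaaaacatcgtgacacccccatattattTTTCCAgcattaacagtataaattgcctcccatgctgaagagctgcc
Ccl1, chr11:82179813-82180062, minus strand: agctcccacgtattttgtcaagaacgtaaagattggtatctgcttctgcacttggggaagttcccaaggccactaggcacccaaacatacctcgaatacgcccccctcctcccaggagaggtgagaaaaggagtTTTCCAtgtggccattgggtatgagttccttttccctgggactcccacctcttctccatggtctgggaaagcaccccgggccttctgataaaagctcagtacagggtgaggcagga
Zbtb32, chr7:30598910-30599159, minus strand: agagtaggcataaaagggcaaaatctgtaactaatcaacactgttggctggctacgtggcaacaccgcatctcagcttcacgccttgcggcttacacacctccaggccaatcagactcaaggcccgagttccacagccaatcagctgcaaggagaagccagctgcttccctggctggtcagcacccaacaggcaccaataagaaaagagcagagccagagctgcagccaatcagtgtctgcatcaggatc
Serpinb6b, chr13:32965011-32965260, plus strand: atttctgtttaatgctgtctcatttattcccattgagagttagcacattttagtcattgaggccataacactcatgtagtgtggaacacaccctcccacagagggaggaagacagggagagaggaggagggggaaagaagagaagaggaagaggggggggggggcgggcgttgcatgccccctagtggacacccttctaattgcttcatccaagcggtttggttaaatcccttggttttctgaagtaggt
Cpd, chr11:76847009-76847258, minus strand: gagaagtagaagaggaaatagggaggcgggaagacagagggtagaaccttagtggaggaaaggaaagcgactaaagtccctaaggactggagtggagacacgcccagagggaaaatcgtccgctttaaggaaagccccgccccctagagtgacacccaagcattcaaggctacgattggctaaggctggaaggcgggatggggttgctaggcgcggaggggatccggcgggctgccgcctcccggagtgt
The motif was found at positions -234 to -229 from the start of Il3, at -47 to -42 from that of Il2 and at -116 to -111 from that of Ccl1. The printed windows of Zbtb32, Serpinb6b and Cpd, which passed, had no match to this exact sequence. Shorter or variant forms of the motif were not searched for, so a lack of NFAT sites is not shown. Searched on both strands over the 250 bases before each start, the motif was in 6104 of 32851 promoters in the RefSeq table (18.6%). It was in 12 of 27 promoters of the cytokine list (44.4%), which includes Il3 and Il2. The other motifs searched on both strands, AP-1 (TGANTCA), the cyclic AMP element (TGACGTCA), the E-box (CACGTG) and EGR (GCGNGGGCG), and the NF-kB and interferon-stimulated response elements, were not in any of the 6. They were in 6.75%, 1.55%, 6.02%, 4.7%, 0.356% and 2.98% of all promoters. A match describes the sequence and shows no binding. RefSeq gives Zbtb32 another start, whose window, chr7:30592943-30593192, is not printed; the one printed is listed first.

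Il3 encodes interleukin-3, a growth factor that activated T cells secrete for mast cells, basophils and myeloid progenitors. It read 9.35 and 10.34 in the DCIR2 arrays, 4.55 and 6.34 in the DEC205 arrays, and 3.67 and 3.84 in the PBS arrays. Both DCIR2 arrays were far above the rest, and the DEC205 arrays lay far apart from each other, with array 2 the higher. The log2 difference was 4.40 (SE 0.48, 95% interval 3.33 to 5.47), which is 21.1-fold on these values (limma adjusted p = 0.0289). The values used here carry no detection call, so whether Il3 was above background in DEC205 array 1 and in PBS is not known, and the fold is uncertain. Against PBS the DCIR2 group was 6.09 higher (adjusted p = 4.81e-05) and the DEC205 group 1.69 higher (adjusted p = 0.0574, not called).

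Zbtb32 encodes a BTB zinc finger repressor known to restrain cytokine production and proliferation of activated T cells. The DCIR2 arrays read 8.16 and 8.65, the DEC205 arrays 6.40 and 6.68, and the PBS arrays 6.21 and 6.02. The DCIR2 arrays stood apart, while the DEC205 arrays were close to PBS. Zbtb32 rose by 1.87 over the DEC205 group (SE 0.22, 95% interval 1.38 to 2.36, 3.66-fold, limma adjusted p = 0.0289) and by 2.29 over PBS. The DEC205 group differed from PBS by 0.42 (adjusted p = 0.322). Of the 20 BTB zinc finger genes measured, Zbtb32 was the one that passed; Bcl6, the repressor that directs follicular helper cells, read 7.33 and 7.16 in the DCIR2 arrays and 8.02 and 8.20 in the DEC205 arrays (difference -0.86, adjusted p = 0.223).

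Serpinb6b, an intracellular inhibitor of serine proteases, read 7.5 and 8.07 in the DCIR2 arrays, 5.80 and 5.86 in the DEC205 arrays, and 5.62 and 5.23 in the PBS arrays. Here too the DEC205 arrays lay just above PBS and both DCIR2 arrays well above all others. The gene rose by 1.95 over the DEC205 group (SE 0.23, 3.88-fold, adjusted p = 0.0289) and by 2.36 over PBS, whereas the DEC205 group was 0.41 above PBS (adjusted p = 0.358). Its paralog Serpinb6a has a probe set of its own, which differed by -0.04 between the antibodies (adjusted p = 0.968), a sign that flipped without DEC205 array 1 or DCIR2 array 1. Serpinb9, the granzyme B inhibitor of the same clade, read 5.38 and 6.43 in the DCIR2 arrays and 4.73 and 4.72 in the DEC205 arrays (adjusted p = 0.23).

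Cpd encodes carboxypeptidase D, a membrane enzyme of the late secretory pathway that trims basic residues from the ends of proteins. It read 7.90 and 8.15 in the DCIR2 arrays, 6.23 and 6.51 in the DEC205 arrays, and 5.49 and 5.68 in the PBS arrays. The groups formed 3 separate steps. Cpd was 1.66 higher after anti-DCIR2-BDC than after anti-DEC205-BDC (SE 0.20, 3.15-fold, adjusted p = 0.0289), and it was above PBS in both antibody groups (2.44 with adjusted p = 4.88e-05, and 0.78 with adjusted p = 0.0327). The calls rested on single arrays: leaving out either DCIR2 array left 0 genes called, leaving out DEC205 array 1 left 1 (Il3), and leaving out DEC205 array 2 gave 12 higher and 15 lower. The differences of these 4 genes kept their sign throughout, with Il3 between 3.51 and 5.30 and the other three between 1.51 and 2.24. All 4 also missed the threshold without a variance trend (adjusted p = 0.0831) or with all probe sets tested (0.491 to 0.52).

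**Figure D2:**
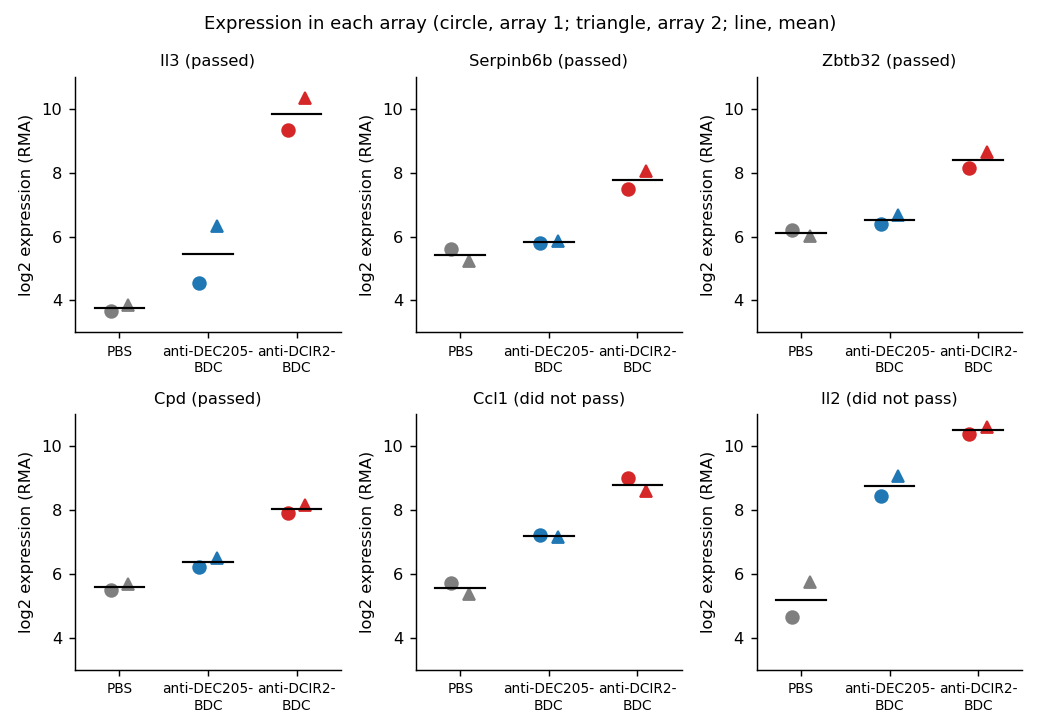
Log2 expression of 6 genes in each array, by group; circles are array 1, triangles array 2 and lines the mean of the 2 arrays. Il3, Serpinb6b, Zbtb32 and Cpd passed between the antibodies, with all DCIR2 arrays above the DEC205 arrays; Ccl1 and Il2 show 3 separate levels and did not pass.

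Ccl1, a chemokine of activated T cells that attracts cells bearing Ccr8, read 9.0 and 8.60 in the DCIR2 arrays, 7.21 and 7.16 in the DEC205 arrays, and 5.73 and 5.37 in the PBS arrays. The 3 groups did not overlap. The difference between the antibodies was 1.61 (SE 0.21, 3.05-fold) and missed the threshold (adjusted p = 0.0679), though it passed when the dimmest 30% or 50% of genes were left out (0.0429 and 0.022). Il2, the T cell growth factor, read 10.40 and 10.62, 8.44 and 9.09, and 4.65 and 5.75 in the same order. Its difference of 1.75 (SE 0.33, 3.36-fold) did not pass (adjusted p = 0.166), except in a fit of the 4 antibody arrays alone (0.0468). Against PBS, Il2 rose in both groups, by 5.31 after anti-DCIR2-BDC (limma adjusted p = 3.39e-05) and by 3.57 after anti-DEC205-BDC (adjusted p = 0.000512).

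Beyond these, the genes with the smallest p among those higher after anti-DCIR2-BDC were Utf1, Crabp2, Exo1, Dusp4, Tnfrsf4, Eea1 and Ydjc, with adjusted p-values from 0.122 to 0.147. Utf1, a chromatin-associated factor known from stem cells, read 9.35 and 9.43 in the DCIR2 arrays, 8.0 and 8.22 in the DEC205 arrays, and 5.43 and 5.66 in the PBS arrays. Tnfrsf4 encodes OX40, a costimulatory receptor induced by antigen, and read 10.33 and 10.69, 9.33 and 9.52, and 7.72 and 8.04. Both stepped up from PBS through the DEC205 to the DCIR2 arrays, and so did Dusp4, a phosphatase that switches off MAP kinases, at a difference of 1.22 between the antibodies. Crabp2, which carries retinoic acid to the nucleus, did not: it read 7.47 and 7.32 in the DCIR2 arrays, 6.10 and 5.29 in the DEC205 arrays, and 5.22 and 5.86 in the PBS arrays, so the DEC205 and PBS arrays overlapped. Exo1, a DNA repair exonuclease, and Eea1, a tether of early endosomes, differed by 1.0 and 1.17.

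Lower after anti-DCIR2-BDC were Pdcd4, an inhibitor of translation initiation, and Ifi27l2a, an interferon-induced gene, both at an adjusted p of 0.0717. Pdcd4 read 7.94 and 8.18 in the DCIR2 arrays, 9.79 and 9.29 in the DEC205 arrays, and 10.30 and 10.07 in the PBS arrays, a difference of -1.47 (SE 0.20, 2.78-fold). Ifi27l2a read 9.12 and 9.0, 10.05 and 10.05, and 10.82 and 10.80, a difference of -1.0 (SE 0.14). Both stepped down from PBS through the DEC205 to the DCIR2 arrays with no overlap. Both passed when the dimmest 30% of genes were left out (0.0435 and 0.0488). The same downward steps were read for Klhl24 (-1.39), Klhl6 (-1.33), Ifi203 of the interferon-inducible Ifi200 family (-1.19), Kbtbd11 (-1.09) and the cyclic nucleotide phosphodiesterase Pde2a (-0.95), none of which passed (adjusted p = 0.122 to 0.147).

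The remaining genes of the 12 lower ones were not called lower than PBS after anti-DEC205-BDC, and neither was Pdcd4 (limma adjusted p = 0.0834). For Hsd11b1, which regenerates active glucocorticoid, and Anxa5, which binds phosphatidylserine, the DEC205 group was not called different from PBS (adjusted p = 0.228 and 0.567) and the DCIR2 arrays lay below all others: Hsd11b1 read 6.53 and 6.58 in the DCIR2 arrays against 7.58 to 8.43 in the other four, and Anxa5 6.76 and 7.22 against 8.06 to 8.51. Hsd11b1 and Anxa5 also stepped down from PBS through the DEC205 to the DCIR2 arrays without overlap. Syt11, of the synaptotagmin family of membrane traffic proteins, and Ephx1, an epoxide hydrolase, likewise had DCIR2 arrays below all others. For these the DEC205 group was not called different from PBS (adjusted p = 0.93 and 0.762). Myb, a transcription factor of progenitor cells, read 7.97 and 7.92 in the DEC205 arrays, 6.70 and 6.75 in the DCIR2 arrays, and 6.03 and 6.55 in the PBS arrays. Here the DEC205 arrays stood above the rest. Myb rose over PBS after anti-DEC205-BDC (1.66, adjusted p = 0.00145) and was not called after anti-DCIR2-BDC (0.43, adjusted p = 0.214), with a difference between the antibodies of -1.22 (SE 0.21, adjusted p = 0.147).

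**Figure D3:**
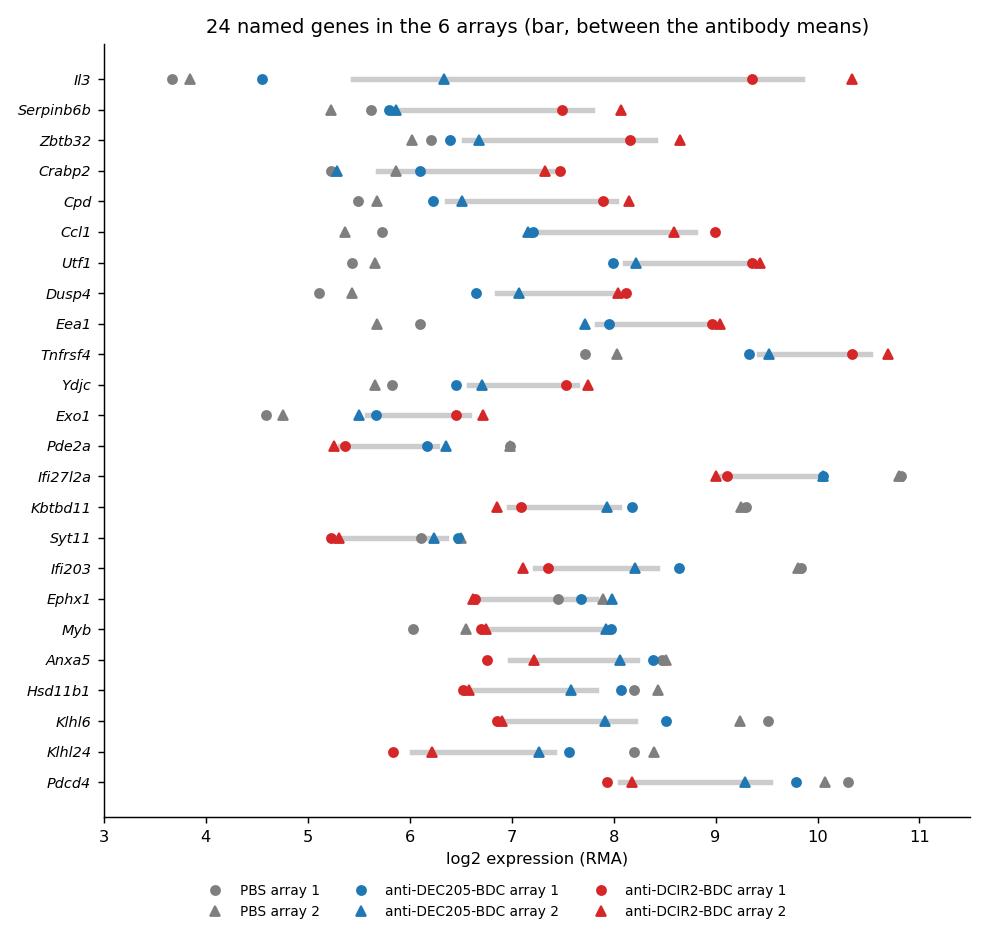
Log2 expression of the 24 genes named for the smallest p in each direction, in all 6 arrays, ordered by the difference between the antibodies; grey bars join the means of the DEC205 and DCIR2 arrays. For every gene the red and blue symbols do not overlap, and Myb is the one gene whose 2 DEC205 arrays lie above all other arrays.

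Transcription factors that a T cell receptor signal induces went both ways between the antibodies. Of 25 measured, 0 passed between the antibodies. At an unadjusted p under 0.05, 6 were higher and 2 lower, where 5.58% and 4.63% of all genes were. The median difference was -0.02, beside -0.01 over all genes. The count of 6 was 2 without DEC205 array 1 and 2 without DCIR2 array 2. Nr4a1, an immediate-early gene that follows the strength of the receptor signal, read 10.16 and 10.29 in the DCIR2 arrays, 10.29 and 10.51 in the DEC205 arrays, and 8.22 and 7.66 in the PBS arrays. The antibody arrays overlapped, at a difference of -0.17 (95% interval -0.62 to 0.27). Nr4a3 differed by 0.04, and Egr2, linked to anergy, by -0.43 (adjusted p = 0.475). Against PBS 14 of the list passed as higher after anti-DCIR2-BDC and 15 after anti-DEC205-BDC, where 10.1% and 5.32% of all genes did; both comparisons use the same PBS arrays. The largest differences between the antibodies in the list were in Fosl1, an AP-1 subunit, at 7.15 and 7.51 in the DCIR2 arrays against 5.95 and 6.05 in the DEC205 arrays (1.33, adjusted p = 0.151), and in Irf4, a factor graded by receptor signal, at 9.78 and 10.24 against 9.06 and 9.31 (0.82, adjusted p = 0.225). Myc, which drives growth, read 12.14 and 12.19 against 11.18 and 11.79 (0.68, adjusted p = 0.483).

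Activation receptors went both ways. Of 20 measured, 5 were higher and 2 lower at an unadjusted p under 0.05, where 5.58% and 4.63% of all genes were. None passed, and the median was 0.15. The count of 5 was 2 without DEC205 array 1 and 2 without DCIR2 array 2, and the median lay between 0.00 and 0.26 with single arrays left out. Il2ra, the high-affinity chain of the IL-2 receptor, read 9.80 and 10.02 in the DCIR2 arrays and 9.16 and 9.37 in the DEC205 arrays, with PBS at 7.27 and 7.88. Tnfrsf9, the costimulatory receptor 4-1BB, had the reverse order: 8.39 and 8.56 in the DCIR2 arrays, 9.22 and 9.30 in the DEC205 arrays, and 5.87 and 6.37 in the PBS arrays, a difference of -0.78 (SE 0.21, adjusted p = 0.255). It rose over PBS in both groups (2.36, adjusted p = 7.6e-05, and 3.14, adjusted p = 0.000193). Cd28, the main costimulatory receptor, was at 9.11 and 9.34 against 9.93 and 9.94, and the early marker Cd69 overlapped between the groups (-0.07).

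Among 25 cytokines measured, Il3 alone passed. At an unadjusted p under 0.05, 6 were higher, Il3, Il2, Il17a, Il17f, Il21 and Csf2, and 2 were lower, Ltb and Il16. Of all genes 5.58% were higher and 4.63% lower at that threshold. The median was 0.18, and 0.07 without DEC205 array 2. Il17a, the signature cytokine of T helper 17 cells, read 7.01 and 6.34 in the DCIR2 arrays, 5.38 and 5.91 in the DEC205 arrays, and 5.5 and 5.24 in the PBS arrays, a difference of 1.03 (SE 0.25, adjusted p = 0.225). The DEC205 arrays were at the PBS level and DCIR2 array 1 was the highest. Csf2, which encodes GM-CSF and lies in the same cytokine cluster as Il3, was near the low end of the scale, at 5.36 and 4.89 in the DCIR2 arrays against 4.42 and 4.81 (0.51, adjusted p = 0.402). Interferon gamma (Ifng) overlapped between the groups, at 6.53 and 7.05 against 6.63 and 6.07 (0.44, 95% interval -0.28 to 1.15), and so did Il10, the inhibitory cytokine, at 4.81 and 4.30 against 4.89 and 4.41 (-0.10; the sign flipped without DEC205 array 1 or DCIR2 array 2). Ltb, lymphotoxin beta, read 9.37 and 9.72 against 10.10 and 10.36, with PBS at 10.85 and 11.16.

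Of 13 chemokines, 4 were higher at an unadjusted p under 0.05, Ccl1, Ccl3, Ccl4 and Xcl1, and 0 were lower, where 5.58% and 4.63% of all genes were. The median was 0.05 and 0 passed. The count of 4 was 2 without DEC205 array 2 and 2 without DCIR2 array 2. Xcl1, the ligand of the receptor Xcr1 on cross-presenting dendritic cells, read 9.08 and 9.37 in the DCIR2 arrays, 7.70 and 8.19 in the DEC205 arrays, and 6.26 and 5.51 in the PBS arrays (difference 1.28, SE 0.27, adjusted p = 0.19). The 3 groups did not overlap. Ccl3, an inflammatory chemokine, read 7.53 and 8.75 in the DCIR2 arrays and 7.5 and 6.16 in the DEC205 arrays, so its groups were barely separate. Ccl5, made by effector and memory T cells, had its lowest values in the DCIR2 group (8.53 and 7.43, against 9.51 and 8.35, with PBS at 10.75 and 9.22), and the antibody groups overlapped.

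Receptors that place T cells in tissue leaned lower after anti-DCIR2-BDC. Of 19 chemokine and egress receptors, 6 were lower and 1 higher at an unadjusted p under 0.05, where 4.63% and 5.58% of all genes were. The list had a median of -0.28 and 0 passed. The median was -0.10 without DEC205 array 1 and -0.49 without DEC205 array 2, and the lower count was 3 without DEC205 array 1 and 9 without DEC205 array 2. Cxcr5, which leads T cells to B cell follicles, read 5.33 and 5.54 in the DCIR2 arrays and 6.74 and 6.0 in the DEC205 arrays. Ccr8, the receptor for Ccl1, was the one higher at that threshold, at 6.70 and 7.87 against 5.79 and 6.18, with PBS at 4.60 and 4.99 (1.30, SE 0.32, adjusted p = 0.225).

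In the helper subset and tolerance lists 0 genes passed. Their counts are at an unadjusted p under 0.05, where 5.58% of all genes were higher and 4.63% lower. In the T helper 17 list 4 of 7 measured genes were higher and 1, the receptor Ccr6, lower at an unadjusted p under 0.05, with a median of 0.61 that was 0.25 without DCIR2 array 1. Ahr, a ligand-activated factor of that subset, read 6.96 and 7.28 in the DCIR2 arrays against 6.33 and 6.12 (0.89, adjusted p = 0.18). In the T helper 1 list 0 were higher and 2 lower, the paired receptor chains of interleukin-18, Il18r1 (-0.84) and Il18rap (-0.77); in the T helper 2 list Ccr8 alone was higher; and in the follicular helper list 3 were higher and 3 lower, where 1 was lower without DEC205 array 1 or DCIR2 array 1. The anergy and tolerance list had 1 of 20 higher and 4 lower, with a median of -0.18; the lower count was 2 and 1 without DCIR2 array 1 and 2, and the median was -0.09 without DEC205 array 1. Dgka, the kinase that removes diacylglycerol and is raised in anergic T cells, read 9.51 and 9.76 in the DCIR2 arrays, 10.46 and 10.45 in the DEC205 arrays, and 11.49 and 11.85 in the PBS arrays (-0.82, adjusted p = 0.166). Foxp3, the factor of regulatory T cells, overlapped at 8.22 and 7.89 against 7.90 and 8.10 (0.06; the sign flipped without DEC205 array 1, without DCIR2 array 1 and with quantile normalization). The regulatory T cell list had 2 of 15 higher and 3 lower (median -0.14) and the inhibitory receptors 2 of 14 higher and 1 lower (median 0.02). The inhibitory receptor Tigit read 7.95 and 8.0 in the DCIR2 arrays and 7.02 and 7.00 in the DEC205 arrays (0.96, adjusted p = 0.18), whereas Pdcd1 and Ctla4, which encode PD-1 and CTLA-4, differed by 0.31 and 0.48 (adjusted p = 0.771 and 0.522).

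Members of the growth lists lay mostly on the DCIR2 side. Of 34 ribosome biogenesis genes, 21 were higher and 0 lower at an unadjusted p under 0.05, where 5.58% and 4.63% of all genes were. Both DCIR2 arrays lay above both DEC205 arrays for 31, where they did for 19.3% of all genes. The median was 0.48 and 0 passed after adjustment. After quantile normalization the median was 0.35 and 15 members were higher at an unadjusted p under 0.05. The mean level of the list was 9.36 and 9.45 in the DCIR2 arrays, 8.85 and 9.04 in the DEC205 arrays, and 7.41 and 7.53 in the PBS arrays, while the mean of all genes stayed between 5.89 and 5.93. Rrp12, a ribosome assembly factor, read 8.91 and 8.99 in the DCIR2 arrays against 7.71 and 8.47 (0.86, adjusted p = 0.314), and Nop2, an rRNA methyltransferase, 9.19 and 9.24 against 8.30 and 8.67 (0.74, adjusted p = 0.26). Against the same PBS arrays 34 members passed as higher after anti-DCIR2-BDC and 33 after anti-DEC205-BDC, where 10.1% and 5.32% of all genes did. The count of 21 was 5 without DEC205 array 1, the lower of the DEC205 arrays for this list, and 8 without DCIR2 array 2; the median stayed between 0.38 and 0.56 whichever array was left out.

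DNA replication genes had the same lean. Of 36 measured, 21 were higher and 0 lower at an unadjusted p under 0.05, where 5.58% and 4.63% of all genes were. The arrays of 26 separated upward and of 0 downward, where 19.3% and 20.9% of all genes did. The median was 0.49. Orc1, a subunit of the origin recognition complex, read 6.99 and 6.94 in the DCIR2 arrays, 5.89 and 6.19 in the DEC205 arrays, and 5.21 and 4.83 in the PBS arrays (0.92, SE 0.19, adjusted p = 0.18). Mcm10, a factor for the start of replication, read 6.86 and 6.95, 6.0 and 6.12, and 5.29 and 5.36 (0.85, adjusted p = 0.166). For both genes the groups formed 3 levels without overlap. The count of 21 was 12 without DEC205 array 1, 9 and 11 without DCIR2 array 1 and 2, and 13 after quantile normalization, and the median stayed between 0.42 and 0.54. Mitosis genes, which come later in the cycle, had 5 of 21 higher (3 without DEC205 array 2 or either DCIR2 array) and 0 lower, a median of 0.13, and list means of 5.66 and 5.63 in the DCIR2 arrays, 5.59 and 5.37 in the DEC205 arrays and 5.20 and 5.19 in the PBS arrays.

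Of 19 amino acid and one-carbon genes, 9 were higher and 0 lower at an unadjusted p under 0.05, where 5.58% and 4.63% of all genes were. Their median was 0.51. Bcat1, which transaminates branched-chain amino acids, read 9.25 and 9.45 in the DCIR2 arrays, 7.85 and 8.54 in the DEC205 arrays, and 5.16 and 5.35 in the PBS arrays (1.16, SE 0.24, adjusted p = 0.18), and Asns, asparagine synthetase, 7.18 and 6.84, 5.84 and 6.17, and 4.88 and 5.11 (1.0, adjusted p = 0.169). Glycolysis genes had 6 of 16 higher and 0 lower, with a median of 0.34. Hk2, the inducible hexokinase, read 7.08 and 7.46 in the DCIR2 arrays and 6.23 and 6.42 in the DEC205 arrays (0.94, adjusted p = 0.18). Without DEC205 array 1 these counts were 3 and 2, and without DCIR2 array 2 they were 4 and 2. Cholesterol synthesis genes had 1 of 16 higher, Fasn, a fatty acid enzyme kept in that list, with a median of 0.03.

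Genes of the naive and quiescent state were on the other side. Of 21 measured, 10 were lower and 0 higher at an unadjusted p under 0.05, where 4.63% and 5.58% of all genes were. The arrays of 16 separated downward and of 1 upward, where 20.9% and 19.3% of all genes did. The median was -0.51 and 0 passed. Btg2, a brake on proliferation, read 8.34 and 8.14 in the DCIR2 arrays, 9.49 and 8.89 in the DEC205 arrays, and 10.51 and 10.03 in the PBS arrays (-0.95, SE 0.23, adjusted p = 0.225). Cdkn1b, the cell cycle inhibitor p27, read 6.82 and 6.32, 7.57 and 7.35, and 8.83 and 8.72 (-0.89, adjusted p = 0.225), and Klf2, which keeps T cells quiescent and circulating, 7.53 and 7.83, 8.46 and 8.54, and 9.47 and 9.70 (-0.82, adjusted p = 0.206). All of these stepped down from PBS through the DEC205 to the DCIR2 arrays. Against PBS 18 members passed as lower after anti-DCIR2-BDC and 14 after anti-DEC205-BDC, where 7.82% and 3.53% of all genes did. Without DCIR2 array 1 the median between the antibodies was -0.32 and the count 5.

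Interferon response genes were lower than in PBS after both antibodies, with 14 of 22 called after anti-DCIR2-BDC and 13 after anti-DEC205-BDC, beside 7.82% and 3.53% of all genes and against the same PBS arrays. Between the antibodies 1 was higher and 3 lower at an unadjusted p under 0.05, with a median of -0.12, where 4.63% of all genes were lower; without DEC205 array 2 or DCIR2 array 1 the lower count was 1. Ddx58, the RNA sensor RIG-I, read 5.82 and 6.32 in the DCIR2 arrays, 7.01 and 6.76 in the DEC205 arrays, and 7.77 and 8.34 in the PBS arrays (-0.82, adjusted p = 0.313), and Bst2, which tethers virions, had the reverse order, at 8.4 and 8.69 against 7.70 and 8.03 (0.68, adjusted p = 0.297). Higher and lower at an unadjusted p under 0.05 were 1 and 0 of 9 TNF family ligands, 1 and 2 of 14 survival and death genes, 2 and 4 of 29 signal feedback inhibitors (1 lower without DEC205 array 1 or DCIR2 array 2) and 2 and 0 of 12 cytotoxic granule genes, with medians from 0.01 to 0.10. Of all genes 5.58% were higher and 4.63% lower at that threshold. Tnfsf11, the ligand RANKL, read 8.88 and 9.14 in the DCIR2 arrays against 8.35 and 8.24 (0.71, limma adjusted p = 0.243).

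**Figure D4:**
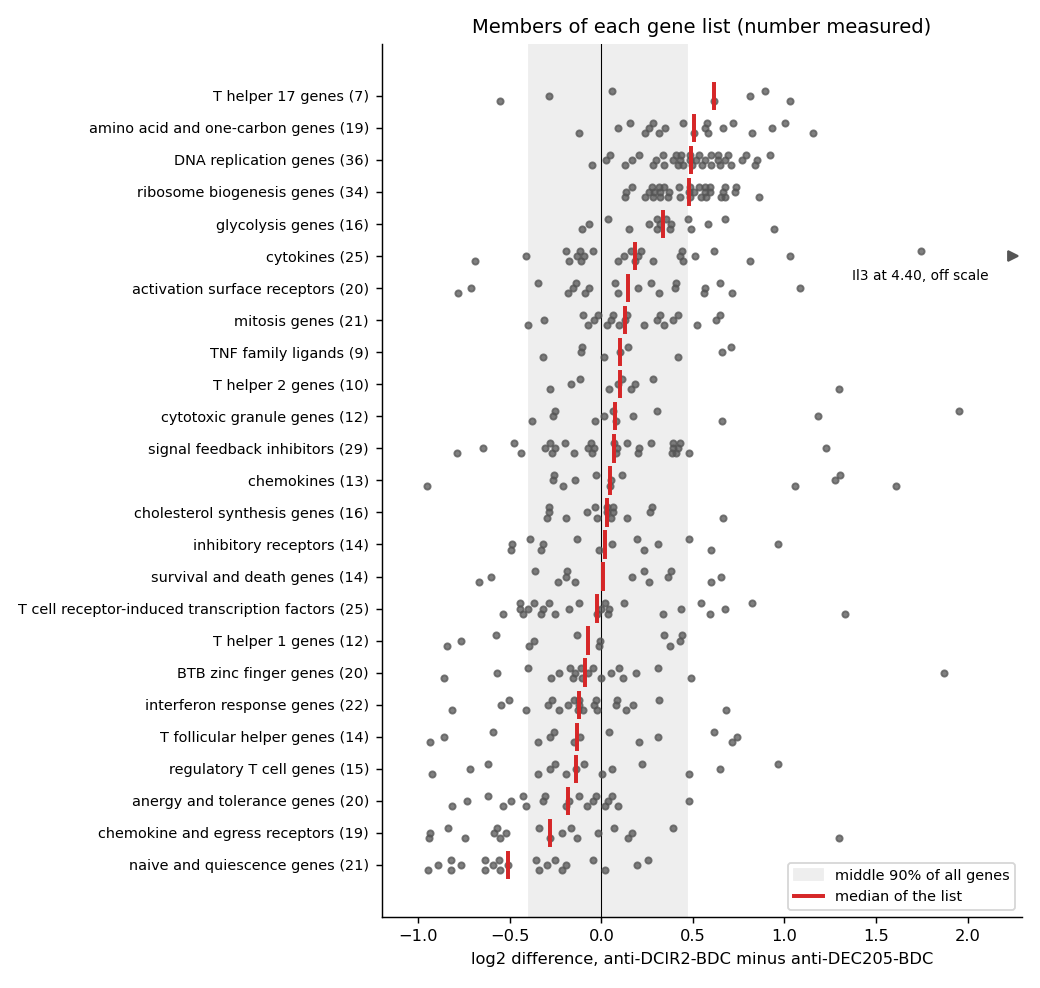
The log2 difference, anti-DCIR2-BDC minus anti-DEC205-BDC, of each measured member of 25 gene lists (grey points), with the list's median (red bar) and the middle 90% of all genes (grey band); the number measured is in brackets. Ribosome biogenesis, DNA replication and amino acid lists have medians of 0.48 to 0.51 and the naive and quiescence list has -0.51; Il3 lies off the scale at 4.40.

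The targeted receptors were themselves on the arrays. Ly75, which encodes DEC205, read 6.41 and 6.26 in the DCIR2 arrays, 6.63 and 6.75 in the DEC205 arrays, and 7.37 and 7.5 in the PBS arrays. It differed by -0.36 between the antibodies (adjusted p = 0.545) and was lower than PBS after both (-1.10, adjusted p = 0.00182, and -0.75, adjusted p = 0.0297). Clec4a4, which encodes DCIR2, lay between 3.28 and 3.68 in all 6 arrays and differed by 0.04 between the antibodies, a sign that flipped without DEC205 array 1 or DCIR2 array 1.

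Markers of the sorted cells were lower in part after anti-DCIR2-BDC, and those of most other cells were near the level of the DEC205 arrays. The 16 dendritic cell genes had 0 members at an unadjusted p under 0.05 in either direction, with list means of 5.36 and 5.45 in the DCIR2 arrays against 5.54 and 5.48 in the DEC205 arrays, and the 12 B cell genes also had 0, with 4.94 and 4.86 against 4.99 and 4.98. Of the 11 T cell identity genes 6 were lower after anti-DCIR2-BDC (median -0.33), where 4.63% of all genes were; without DCIR2 array 1 the count was 3. The list had means of 9.72 and 9.80 against 10.13 and 10.11. Cd3g, a chain of the T cell receptor complex, read 9.99 and 9.77 in the DCIR2 arrays, 10.74 and 10.56 in the DEC205 arrays, and 11.02 and 11.22 in the PBS arrays (-0.77, adjusted p = 0.154). Of the 9 natural killer cell genes 3 were lower, with list means of 4.42 and 4.30 against 4.60 and 4.62 (1 lower without DEC205 array 2, DCIR2 array 2 or either PBS array); Klrd1, a receptor that activated T cells also carry, read 4.79 and 4.92 against 6.55 and 5.32, while the defining gene Ncr1 lay between 4.0 and 4.55 in all 6 arrays. Among other marker lists, 1 of 4 CD8 T cell genes, 1 of 7 plasma cell genes and 1 of 13 macrophage genes were higher. Lower were 2 macrophage genes and 1 of 8 stromal and endothelial genes. The 9 neutrophil and the 5 erythroid and platelet genes had 0 in either direction. Of all genes 5.58% were higher and 4.63% lower at an unadjusted p under 0.05. In a bulk sample a smaller share of cells with a gene and less RNA of it per cell cannot be told apart, and the part of these markers in the differences above was not tested.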

How the data were processed

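Gene expression was measured on Affymetrix arrays in 6 samples of sorted cells, 2 per group. The cDNA was amplified from 5 ng of RNA (PicoPure extraction, NuGen Ovation pico amplification, per the labels), a step that can make dim probe sets noisier. Per the submitters' processing notes and the design text, the authors derived the deposited log2 values by RMA, run in Partek; its version is not given in the sources used here. No genome build is given there either. RMA equalises array distributions, which hides any change common to all genes.

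The table held 35556 probe sets, 21789 with 1 gene symbol in the platform annotation, 1621 with several and 12146 with none; the single-symbol ones matched RefSeq by Entrez identifier in 21698 cases. Per gene the probe set with the highest mean over the 6 arrays was kept, which gave 19938 genes with no filter on dim ones. The fit, in limma 3.58.1 under R 4.3.3, used all 6 arrays and a mean for each group, with a variance trend, two-sided tests and Benjamini-Hochberg adjustment over all genes at 0.05; the script was tested on simulated data. Depth is set by the number of arrays, which limits the precision. Replicate arrays shared at most 18 identical values.

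The comparison and its 35 gene lists (25 of function, 10 of cell type markers; 509 of 546 genes measured) were chosen with earlier results of these data known, so list counts are descriptions. Named genes were those that passed, the 12 in each direction with the smallest p among genes with separate arrays, at least 1.5-fold and bright enough (higher group mean at or above the median gene), the 2 largest differences and any called member of each function list, and Zbtb32, Ly75, Clec4a4, Il2, Il3, Csf2 and Ccl1. Symbols of predicted genes, microRNAs and olfactory and vomeronasal receptors were left out of the ranked 24. Outside this rule, Serpinb6a, Tnfrsf21, Xcl1, Ccl5, Nr4a1, Nr4a3, Egr2, Myc, Cd28, Cd69, Il2ra, Il10, Il16, Il17f, Il21, Ccl4, Ccr6, Ifng, Ltb, Foxp3, Pdcd1, Ctla4, Klf2, Gbp4 and the cell type markers were picked once their values were known.

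The alternatives left out each array, added a replicate block, changed the normalization, the filter on dim genes, the choice of probe sets, the variance model and the array weights, or fitted only the arrays compared.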

Additional observations from a re-analysis of the deposited data

How the results depend on the processing

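Leaving out single arrays moved the number of genes higher after anti-DCIR2-BDC from 4 to between 0 and 12, and the number lower from 0 to between 0 and 15. The calls against PBS, 3568 after anti-DCIR2-BDC and 1763 after anti-DEC205-BDC, ranged from 2090 to 3637 and from 997 to 1367. Samples with equal replicate numbers deviated together at r = 0.145, 0.131 and 0.071 for the 3 pairs of groups, all positive. The labels do not say whether equal numbers share a day, and the main fit did not pair them. A replicate block gave 3885 calls against PBS after anti-DCIR2-BDC and 2069 after anti-DEC205-BDC. With a replicate block 2 genes were higher, Il3 and Cpd, while Serpinb6b and Zbtb32 had adjusted p-values of 0.054 and 0.0515. With every probe set tested, or without a variance trend, 0 were higher. With every probe set, 694 of the 35556 probe sets differed from PBS after anti-DEC205-BDC, a count of probe sets and not of genes. Without the dimmest 30% or 50% of genes, when fewer genes are adjusted for, 2 and 3 genes were lower. Among named genes whose change of call is not given with their values, Utf1 (0.0398) and Klhl24 (0.0497) passed without the dimmest 50%, and Klhl6 (0.0408), Pdcd4 (0.0284), Klrd1 (0.0284) and the death receptor gene Tnfrsf21 (0.0293) without DEC205 array 2. These differences changed sign when an array was left out: Ddit4 (-0.74 with all arrays, -1.50 to 0.034), Clec4a4 (-0.089 to 0.16), Serpinb6a (-0.18 to 0.10), Il10 (-0.35 to 0.16) and Foxp3 (-0.11 to 0.22, and -0.049 with quantile normalization). Beyond the causes named, the cause was not tested. The 2 arrays per group limit what can be called: the median 95% interval reached 0.388 to either side on the log2 scale.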

Other observations

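Probe sets that carry several gene symbols were outside the comparison. Of 1621 such probe sets, 117 had an unadjusted p under 0.05 between the antibodies and 0 passed; of 12146 without a symbol, 1020 did and 0 passed (limma, adjusted over all 35556 probe sets).

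The probe sets below, of interferon-inducible GTPase genes, were picked after their values were seen, from the 30 of this kind with the smallest p, and stand for no wider group. A probe set shared by Tgtp1 and Tgtp2 read 7.4 and 7.64 in the DCIR2 arrays, 8.85 and 8.48 in the DEC205 arrays, and 10.27 and 9.96 in the PBS arrays, a log2 difference of -1.15 between the antibodies (adjusted p = 0.544). One shared by Irgm2 and Igtp read 6.85 and 6.97, 7.93 and 7.8, and 9.3 and 8.98 in the same order (-0.95, adjusted p = 0.544), and one shared by Gbp4 and 5 other guanylate-binding protein genes 6.99 and 7.25, 8.05 and 8.02, and 9.08 and 9.2 (-0.91, adjusted p = 0.544). Gbp4 also has a probe set of its own, which read 6.26 and 6.86 in the DCIR2 arrays, 7.73 and 7.6 in the DEC205 arrays, and 8.88 and 8.98 in the PBS arrays (-1.10, SE 0.23, adjusted p = 0.18). That value is from the fit of 19938 genes and the 0.544 values from the fit of 35556 probe sets, so they are not comparable. In each of these probe sets the 3 groups formed downward steps without overlap and none passed.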
